A study of Mus musculus with 10 samples.

Results

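The keratin family was examined in mouse prostate epithelium and in the Myc-CaP prostate cancer line, with and without deletion of Arid1a, which encodes a DNA-binding part of a SWI/SNF chromatin remodeller. Members were all rows whose symbol is Krt followed by a number and at most one letter, with keratin-associated proteins left out. This gave 54 keratins of 48897 rows in each of the tables.

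Keratins are the intermediate filament proteins of epithelial cells, and a filament is built from type I and type II keratins in pairs. In the prostate, basal cells are known for Krt5 and Krt14, and luminal cells for Krt8 and Krt18. Stratified squamous epithelia lining the mouth and oesophagus use Krt4 and Krt13, while Krt6a, Krt16 and Krt17 are known for their induction in wounded or stressed epithelium.

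The epithelium was from 3-month-old C57BL/6 mice, as cells sorted for EpCAM and against CD45. There were 3 control libraries (A, B and C) and 3 knockout libraries (A, B and C) labelled Arid1aPC-/-, where PC stands for deletion by a Cre recombinase driven by the Probasin promoter. Both groups carry a further deletion made by the same Cre, so the controls are not wild type and no comparison with normal prostate can be made. Myc-CaP, a line of FVB strain derived from a prostate tumour of a c-Myc transgenic mouse, gave 2 libraries with an empty vector (EV 1 and 2) and 2 labelled Arid1a KO (KO 1 and 2), the knockout being made by CRISPR guides in lentivirus. The labels name the cell line as their source, while the study also sequenced Myc-CaP tumour cells sorted from mice, so growth in culture is not settled. Nothing states whether the Myc-CaP replicates were separate cultures, so their p-values measure only the spread between these libraries.

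Levels are RPKM in the epithelium and TPM in Myc-CaP, and both units are already per gene length, so levels of different keratins can be set side by side within a table. The step between low values gave a rough depth of 28.8 M to 36.3 M reads per epithelium library, though only 28.7% to 31.1% of the low values there, and 24.2% to 25.7% in Myc-CaP, came out within 2% of a whole read. Read numbers given below are therefore approximate, and TPM keeps no absolute depth. Arid1a itself was at 27.8, 21.9 and 26.5 RPKM in the epithelium controls and at 31.1, 28.8 and 30.8 RPKM in the epithelium libraries labelled Arid1a KO. It was not reduced there, and 1 value per gene cannot show whether exons were lost, so the KO libraries of the epithelium are KO by label. In Myc-CaP it was at 60.5 and 61.0 TPM with the empty vector and at 39.5 and 40.3 TPM in the KO libraries, with both KO libraries below both EV libraries.

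The keratins lie in clusters, with 27 members on chromosome 11 and 27 on chromosome 15. The chromosome 15 cluster holds the type II keratins and Krt18. Short promoter stretches are shown for 4 keratins called higher in the epithelium (results below) whose 100 bases before the RefSeq start held no annotated exon and held TATAAA or ATAAAA on either strand. These letters are in capitals and the sequences run 5′ to 3′ up to the base before the start. All are from RefSeq on GRCm38.p6 and on the minus strand: Krt13 at chr11:100121567-100121666, Krt20 at chr11:99438154-99438253, Krt33b at chr11:100029869-100029968 and Krt5 at chr15:101712906-101713005.
Krt13: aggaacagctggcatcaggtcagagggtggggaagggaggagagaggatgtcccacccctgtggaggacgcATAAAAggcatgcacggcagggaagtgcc
Krt20: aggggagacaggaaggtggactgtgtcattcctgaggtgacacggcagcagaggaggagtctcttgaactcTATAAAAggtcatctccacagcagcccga
Krt33b: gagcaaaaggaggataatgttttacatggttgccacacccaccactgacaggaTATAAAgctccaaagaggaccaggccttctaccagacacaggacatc
Krt5: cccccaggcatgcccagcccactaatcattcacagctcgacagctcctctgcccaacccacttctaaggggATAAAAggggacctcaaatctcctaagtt
In Krt13, a squamous keratin, and in Krt5, a basal keratin, ATAAAA began 29 bases before the start. TATAAA began 29 bases before the start in Krt20, a keratin of intestinal and urothelial surface cells, and 47 bases before it in Krt33b, a hair keratin. The set of RefSeq promoters used held 37 entries for 36 keratins, and none for Krt4, Krt6a, Krt6b, Krt15, Krt16 and Krt19. Over 250 bases before the start, 20 of these 36 keratins held ATAAAA in at least 1 entry (55.6%), against 17% of all 32851 promoter entries. Keratins were thus counted by gene and all promoters by entry. TATAAA, which can overlap ATAAAA, was present in 17 keratins (47.2%) and 12.4% of all entries. GGGCGG was present in 2 keratins, Krt7 and Krt75, against 32.7% of all entries. TGANTCA was present in 1 keratin, Krt13, against 6.75% of all entries. These matches describe the letters in the windows, and no binding was measured.

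In the epithelium, the basal keratins Krt5 and Krt14, the squamous keratins Krt4 and Krt13 and the stress keratins Krt6a, Krt6b and Krt16 were called higher where the label was Arid1a KO. Simple keratins were split, with Krt7, Krt20 and Krt23 higher and Krt18 and Krt19 lower. Krt13 was 35.8-fold higher, the second largest log2 rise of the 16275 genes tested, and Krt14 was 5.47-fold higher. A gene was tested when its mean over all libraries of the table was at least 0.5, with limma on log2(RPKM + 1), and called at a Benjamini-Hochberg adjusted p-value under 0.05 over all genes tested. By this rule 23 keratins were tested, 13 were called higher, 3 were called lower and 7 were not called. The background was high, since 27.5% of all genes tested were called higher and 29.6% lower, against 56.5% and 13.0% of the keratins. Rescaling the libraries to the same sum moved the middle of all genes by 0.14 on the log2 scale and changed the split over all genes from 4471 higher and 4823 lower to 6046 higher and 3277 lower. The keratins tested had a median log2 fold change of 0.37, and all genes tested one of -0.03. With the cut-offs of the study (at least 1.5-fold, and p under 0.05 before adjustment), 10 keratins were higher and 1 lower, and 24.8% of all genes passed in either direction. Groups did not overlap for 17 of the 23 keratins and for 66.7% of all genes. Of the 31 keratins not tested, 8 were listed at 0 in every library and the group means of the others reached at most 0.585 RPKM. Krt33b, counted among the 13, passed the filter on low values only through the KO libraries, and Krt83, counted among the 3, only through the controls, so their calls are no support for a change of the family.

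**Figure D1:**
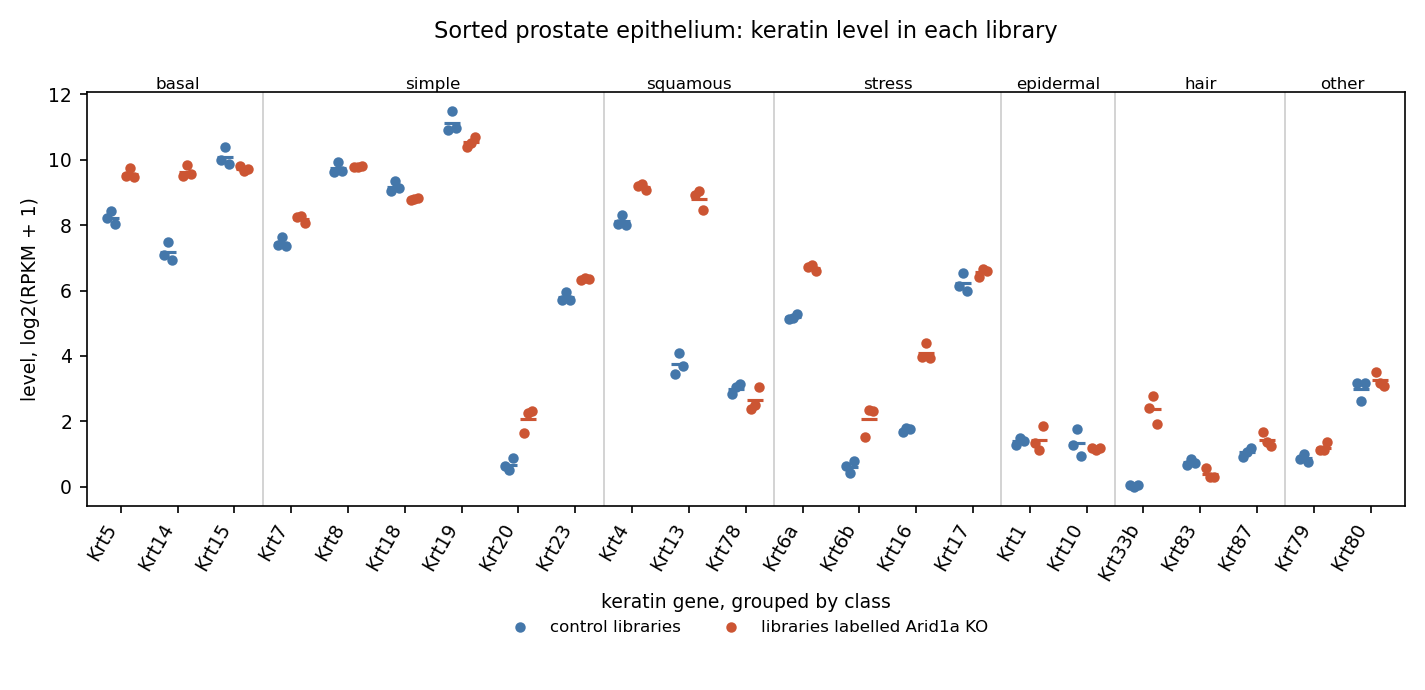
Level of 23 keratins in each epithelium library as log2(RPKM + 1) on the vertical axis, grouped by class. Points are libraries and short lines are group means (3 control libraries, 3 libraries labelled Arid1a KO). Krt13 and Krt14 stand well above the controls in all 3 KO libraries, while the points of Krt8 overlap.

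The basal keratins parted. Krt14, the type I keratin of basal cells, was at 136, 179.9 and 122 RPKM in controls A, B and C and at 722, 918 and 756 RPKM in KO libraries A, B and C. Krt5, its type II partner, was at 297, 346 and 262 RPKM in the controls and at 725, 849.5 and 711 RPKM in the KO libraries. For both genes every KO library lay above every control. Krt14, which shares 13.9% of its 50-base stretches with other genes, rose by a log2 fold change of 2.45 ± 0.16 (SE, adjusted p = 3.3e-05, limma) and Krt5 by 1.34 ± 0.12 (adjusted p = 0.000129). Krt15, a second type I basal keratin and the most abundant of the 3 in the controls, was at 1026, 1353 and 942 RPKM in the controls and at 899, 812 and 837 RPKM in the KO libraries. Its KO libraries lay below the controls without overlap in RPKM as deposited, but the log2 fold change of -0.37 ± 0.15 did not pass (adjusted p = 0.0638). It passed when control library C was left out (-0.47, adjusted p = 0.0410). The fall was smaller and not called with libraries rescaled to the same sum (-0.19, limma adjusted p = 0.218). The same held after quantile normalization (-0.13, adjusted p = 0.336) and after removal of a trend on gene length (-0.13, adjusted p = 0.383). The ratio of Krt5 to Krt14 was between 1.92 and 2.18 in the controls and between 0.926 and 1.01 in the KO libraries. Trp63, the transcription factor that marks basal cells, was at 4.80 to 5.26 RPKM in the controls and 3.53 to 4.99 RPKM in the KO libraries and was not called.

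Among simple keratins, the luminal pair Krt8 and Krt18 did not move as one. Krt8 was at 781, 983 and 813 RPKM in the controls and at 871, 869 and 886 RPKM in the KO libraries, and the groups overlapped. Its log2 fold change of 0.03 ± 0.11 was not called (adjusted p = 0.803), but it was called higher after quantile normalization (0.29, adjusted p = 0.0105) and after removal of a trend on gene length (0.25, adjusted p = 0.0352). Krt18, its type I partner, was at 527, 649 and 555 RPKM in the controls and at 435, 444 and 454 RPKM in the KO libraries, all below the controls. Krt18 fell by 0.37 ± 0.10 on the log2 scale (adjusted p = 0.0135). Its fall was smaller and not called with libraries rescaled to the same sum (-0.19, limma adjusted p = 0.0650). The same held after removal of a trend on gene length (-0.11, adjusted p = 0.187). Without the filter on low values it was not called either (adjusted p = 0.0714). The ratio of Krt8 to Krt18 was 1.48, 1.52 and 1.46 in the controls and 2.003, 1.958 and 1.95 in the KO libraries.

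Krt19, a type I keratin of simple epithelia, was the most abundant keratin in either group. It was at 1913, 2861 and 1993 RPKM in the controls and at 1346, 1457 and 1643 RPKM in the KO libraries, with no overlap. Krt19 fell by 0.59 ± 0.18 on the log2 scale (adjusted p = 0.0243). The fall of Krt19 was not called without KO library A (adjusted p = 0.0842) or without KO library B (adjusted p = 0.0626), and under quantile normalization neither Krt18 (-0.14, adjusted p = 0.111) nor Krt19 (-0.16, adjusted p = 0.2997) was called. Krt7, its type II partner in ducts, was at 166, 196 and 163 RPKM in the controls and at 303, 311 and 265 RPKM in the KO libraries, which all lay higher (log2 fold change 0.74 ± 0.10, adjusted p = 0.000696). Krt23, a type I keratin of simple epithelia, was at 51.1, 60.7 and 51.6 RPKM in the controls and at 78.2, 81.7 and 81.4 RPKM in the KO libraries. Krt20 was at 0.555, 0.424 and 0.823 RPKM in the controls and at 2.11, 3.83 and 3.97 RPKM in the KO libraries. Both were called higher, Krt23 by 0.56 ± 0.08 (adjusted p = 0.000861) and Krt20 by 1.40 ± 0.19 (adjusted p = 0.000738). Krt20 marks urothelium as well as gut. Of 5 uroplakin genes, which mark urothelium, 1 (Upk3a) was called higher and 4 lower (27.5% and 29.6% over all genes). Upk1a, among the 4, lay at the threshold (limma adjusted p = 0.0499), and its groups overlapped through KO library C. The uroplakin genes summed to 105 to 132 RPKM in the controls and 70.3 to 116 RPKM in the KO libraries.

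Of 3 squamous keratins tested, the pair Krt13 and Krt4 rose unequally and Krt78 was not called. Krt13 was at 9.88, 16.2 and 11.9 RPKM in the controls and at 483, 525 and 352 RPKM in the KO libraries. Krt4, its type II partner, was already at 261, 318 and 257 RPKM in the controls and was at 584, 616 and 532 RPKM in the KO libraries. Neither gene overlapped between groups, and the excess of Krt4 over Krt13 shrank from between 19.7 and 26.4 to between 1.17 and 1.51. Krt13 rose by 5.06 ± 0.20 on the log2 scale (adjusted p = 5.06e-06) and Krt4 by 1.05 ± 0.11 (adjusted p = 0.000204). Krt78, a type II squamous keratin, was at 6.07, 7.29 and 7.80 RPKM in the controls and at 4.21, 4.66 and 7.28 RPKM in the KO libraries, with overlapping groups (-0.36 ± 0.18, adjusted p = 0.117). The pair of the cornified epidermis was not called either. Krt1 was at 1.44, 1.82 and 1.61 RPKM in the controls and at 1.504, 1.18 and 2.63 RPKM in the KO libraries. Krt10 was at 1.41, 2.42 and 0.917 RPKM in the controls and at 1.27, 1.16 and 1.29 RPKM in the KO libraries. For both the groups overlapped and neither was called (adjusted p = 0.840 and 0.501). Other squamous markers differed in direction, with Ivl (involucrin, an envelope protein) called higher (log2 fold change 1.12) and Lor (loricrin, of cornified epidermis) called lower (-1.36).

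All 4 stress keratins had a positive log2 fold change and 3 were called higher, against 27.5% of all genes tested. Krt6a, a type II keratin, was at 33.8, 34.7 and 37.7 RPKM in the controls and at 104, 109.7 and 95.5 RPKM in the KO libraries. Krt16, its type I partner, was at 2.22, 2.48 and 2.39 RPKM in the controls and at 14.6, 20.2 and 14.3 RPKM in the KO libraries. Both groups of libraries were tight and did not overlap in either gene. Krt6a rose by 1.51 ± 0.07 (adjusted p = 1.23e-05) and Krt16 by 2.35 ± 0.13 (adjusted p = 1.75e-05). Of their 50-base transcript stretches, Krt6a shares 45.7% and Krt16 37.6% with other genes. Krt14, far more abundant at a mean of 146 RPKM in the controls and 799 RPKM in the KO libraries, shares 11% of its stretches with Krt16. The level of Krt16 thus depends on where shared reads were placed, and their part in its rise was not tested. Krt6b was at 0.543, 0.345 and 0.717 RPKM in the controls and at 1.88, 4.07 and 3.99 RPKM in the KO libraries (log2 fold change 1.45 ± 0.22, adjusted p = 0.00122). Krt6b shares 44.5% of its stretches with Krt6a, so its level depends on where shared reads were placed. The methods of the study kept only the best match of each read. Krt17 was at 69.3, 92.1 and 62.1 RPKM in the controls and at 85.0, 100.7 and 96.2 RPKM in the KO libraries. Its groups overlapped through control library B and it was not called (0.35 ± 0.14, adjusted p = 0.0718), while without that library it was called higher (0.51, adjusted p = 0.00416). With all libraries kept, limma called it higher after rescaling to the same sum (0.52, adjusted p = 0.00827) and after quantile normalization (0.43, adjusted p = 0.0215). It was also called higher after removal of a trend on gene length (0.60, adjusted p = 0.00389).

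Hair keratins were low, but Krt33b appeared almost only in the KO libraries. It was at 0.0427, 0 and 0.0406 RPKM in the controls and at 4.28, 5.84 and 2.79 RPKM in the KO libraries, or about 2, 0 and 2 reads against about 206, 275 and 127 reads. These libraries did not overlap, and the log2 fold change was 2.33. Krt33b shares 24.2% of its 50-base stretches with other genes, most with Krt34, and Krt34 itself was at 0.0210 RPKM or listed at 0 in all 6 libraries. Its neighbour Krt33a reached at most 0.0955 RPKM. Krt83 (0.596, 0.815 and 0.639 against 0.486, 0.229 and 0.237 RPKM) was called lower, and Krt87 (0.888, 1.10 and 1.28 against 2.21, 1.56 and 1.39 RPKM) was called higher. Krt79, a sebaceous duct keratin, was at 0.789, 1.02 and 0.704 RPKM in the controls and at 1.17, 1.17 and 1.57 RPKM in the KO libraries and was called higher. Krt83 and Krt87 share 22.1% and 36.9% of their stretches with other genes, so their levels are uncertain. The calls of Krt79, Krt83 and Krt87 lay close to the threshold (adjusted p = 0.0394, 0.0293 and 0.0460). Krt79 was not called without any 1 library except control library B. Krt87 was not called without any 1 library except KO library C (adjusted p between 0.0503 and 0.134 in those 5 fits), and Krt83 was not called without KO library B (0.0951) or C (0.0849) and fell under the filter without any 1 control library.

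Summed over all 54 members, keratins held 5297, 7116 and 5299 RPKM in the controls and 6682, 7148 and 6759 RPKM in the KO libraries, so the sums overlapped through control library B. The overlap depended on the scale, since RPKM totals differ between libraries: as a share of the whole table keratins held 1.20%, 1.503% and 1.19% in the controls and 1.67%, 1.80% and 1.68% in the KO libraries, without overlap, and the ratio of the sums was 1.32 after rescaling against 1.16 as deposited. Type I keratins summed to a mean of 4233 RPKM in the controls and 4228 RPKM in the KO libraries, a ratio of 0.999 (0.846%, 1.10% and 0.840% of the table in the controls against 1.02%, 1.098% and 1.05%, which overlap), while type II keratins rose from 1671 to 2635 RPKM in the mean, a ratio of 1.58 with no overlap. Simple keratins fell from 66.4% to 46.4% of the summed level in the mean. As a share of the whole table the simple keratins overlapped between groups. They held 0.779%, 1.004% and 0.803% in the controls and 0.757%, 0.796% and 0.827% in the KO libraries. The basal share went from 26.3% to 35.1%, the squamous share from 5.08% to 15.1% and the stress share from 1.92% to 3.15%. None of these 4 shares of the summed keratin level overlapped between the groups, but each depends on the levels of the other classes. No test was run on sums or shares, because the members were chosen with results known.

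**Figure D2:**
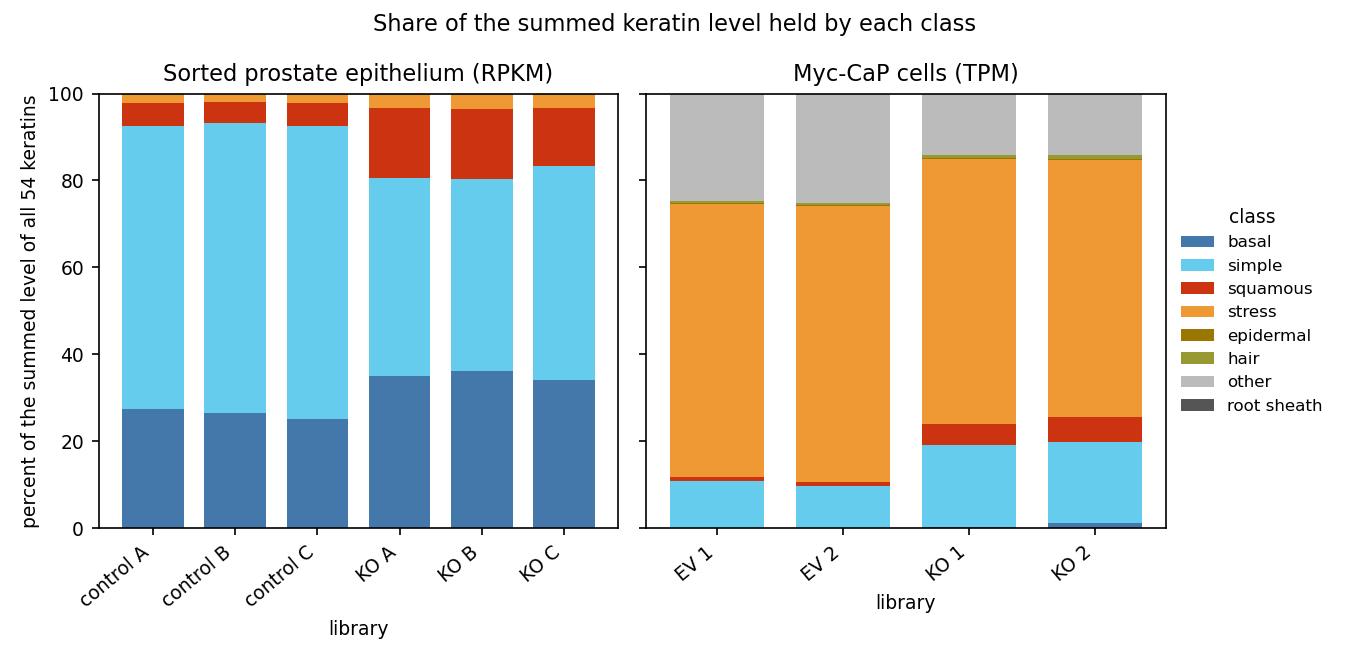
Share of the summed level of 54 keratins held by each class (percent, bars from 0), in each library of the epithelium (RPKM, left) and of Myc-CaP (TPM, right). In the epithelium the simple share is smaller and the squamous share larger in every KO library, and in Myc-CaP the stress keratins hold the largest share in every library.

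In bulk libraries, a larger share of basal or squamous cells and more keratin RNA per cell cannot be told apart. Other cell markers moved with these keratins in the sorted epithelium, where 27.5% of all genes were called higher and 29.6% lower. Among luminal markers, Pbsn, the probasin gene, was at 159.8, 203 and 198 RPKM in the controls and at 3.07, 4.29 and 8.66 RPKM in the KO libraries and was called lower (-4.98). Cd24a, a surface protein of luminal cells, was at 424, 458 and 417 RPKM in the controls and at 208, 213 and 251 RPKM in the KO libraries and was also called lower (-0.95). Markers of the seminal vesicle, 6 of 6 lower, summed to between 18310 and 20710 RPKM in the controls and between 623 and 1573 RPKM in the KO libraries. Leukocyte markers, 6 higher and 1 lower of 8, summed to between 1357 and 1541 RPKM in the controls and between 2332 and 2794 RPKM in the KO libraries, and Ptprc, which encodes the sorted-against CD45, was at 26.01 to 30.3 and 56.2 to 58.1 RPKM. Fibroblast markers (2 lower of 5) summed to between 1641 and 2395 RPKM in the controls and between 1380 and 1951 RPKM in the KO libraries. Smooth muscle markers (1 higher and 3 lower of 4) and endothelial markers (1 higher of 4) summed to at most 117 RPKM in any library. The part of these cells in the keratin differences was not tested.

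Genes that attach keratin filaments to cell junctions were tested beside the keratins in the epithelium. Of 14 such genes, 10 were called higher and 1 lower (27.5% and 29.6% over all genes), with a median log2 fold change of 0.59 against -0.03 over all genes. Those past 1 on the log2 scale were Pkp1, a desmosomal plakophilin (1.68; 14.3, 14.1 and 13.7 against 46.5, 50.9 and 44.2 RPKM), and both subunits of the hemidesmosomal integrin, Itgb4 (1.48; 43.3, 39.0 and 39.1 against 116, 118 and 109.8 RPKM) and Itga6 (1.17; 23.9, 20.6 and 20.6 against 46.3, 52.7 and 51.0 RPKM). Dsp, the desmoplakin that anchors keratin, was called higher by 0.63 (44.4, 40.4 and 41.6 against 63.6, 68.0 and 65.4 RPKM). Of 9 transcription factors linked to keratin expression, 3 were called higher and 1 lower (27.5% and 29.6% over all genes; median 0.17), so the share called higher was near that of all genes. Grhl3 (1.49) and Zfp750 (1.29), both known for terminal differentiation of stratified epithelium, passed 1, and Ehf was called lower (-0.49). Of 9 other intermediate filament genes tested, 2 were called higher and 4 lower (27.5% and 29.6% over all genes; median -0.06), with Des, the muscle filament desmin, at 14.6, 15.7 and 15.98 against 6.78, 6.79 and 5.31 RPKM (-1.18).

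In Myc-CaP, 8 keratins were called higher in the KO libraries and 0 lower (limma, at an unadjusted p-value under 0.05 also 0 lower). Krt8 had the largest log2 rise of all 13974 genes tested and Krt4 the second largest. Of the 54 keratins, 16 were tested and 18 were listed at 0 in every library. Over all genes 4.54% were called higher and 1.89% lower, against 50% and 0% of the keratins tested. The keratins tested had a median log2 fold change of 0.99, and all genes tested one of -0.01. With the cut-offs of the study 9 of 16 keratins were higher and 0 lower, against 6.28% of all genes in either direction. Groups did not overlap for 12 of 16 keratins and for 51.5% of all genes. Krt14, Krt15, Krt17 and Krt19 had an EV mean under 0.5 TPM and passed the filter on low values only through the KO libraries, so the calls of Krt15 and Krt19 among the 8 are no support for a change of the family. The 20 keratins that were not tested but not at 0 everywhere reached a group mean of at most 0.991 TPM. Of these, 18 had a higher mean in the KO libraries, against 10 of 23 such keratins in the epithelium. The share among all untested genes was not counted, so this count is no support for a change of the family.

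**Figure D3:**
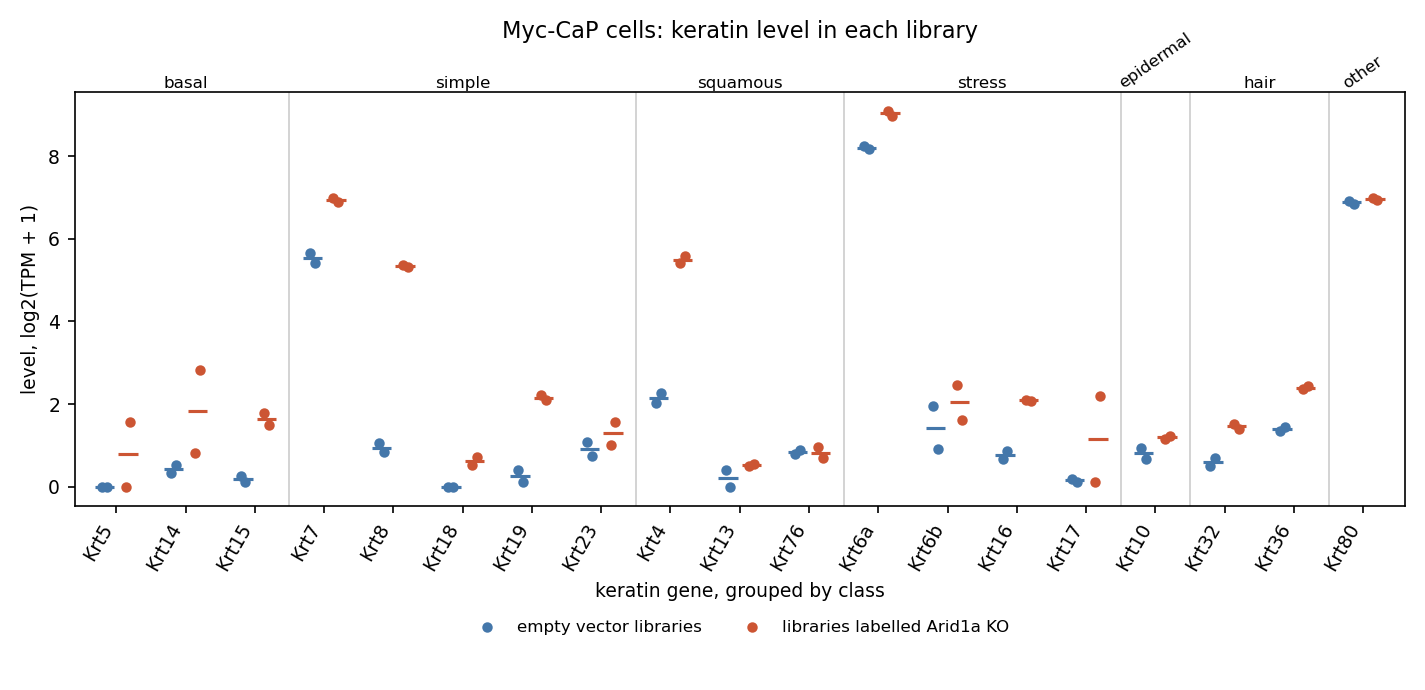
Level of the 16 keratins tested in Myc-CaP and of the pair members Krt5, Krt13 and Krt18, as log2(TPM + 1) on the vertical axis, grouped by class. Points are libraries and short lines are group means (2 empty vector libraries, 2 libraries labelled Arid1a KO). Krt8 and Krt4 stand far above the empty vector in both KO libraries, and Krt5, Krt14 and Krt17 are high only in KO library 2.

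Myc-CaP with the empty vector carried little of the luminal pair. Krt8 was at 1.07 and 0.790 TPM in EV libraries 1 and 2 and at 40.3 and 38.8 TPM in KO libraries 1 and 2. These levels correspond to about 18 and 12 reads against about 652 and 578 reads. Krt8 was thus 42.5-fold higher, with a log2 fold change of 4.396 ± 0.12 (adjusted p = 0.00135). Krt18, which forms filaments with Krt8 and lies next to it on chromosome 15, was listed at 0 in both EV libraries and was at 0.432 and 0.658 TPM in the KO libraries, or about 5 and 7 reads, and was below the filter. In the KO libraries Krt8 exceeded Krt18 by 93.2 and 59.1 times. Krt8 shares 26.9% of its 50-base stretches with the pseudogene Krt8-ps, which was at most at 0.0769 TPM in these libraries.

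Krt4 was at 3.10 and 3.83 TPM in the EV libraries and at 41.3 and 47.2 TPM in the KO libraries. Both KO libraries lay far above the EV libraries (log2 fold change 3.34 ± 0.13, adjusted p = 0.00145). Its partner Krt13 stayed near the floor, at 0.328 and 0 TPM with the empty vector and 0.417 and 0.454 TPM in the KO libraries, and was not tested. Krt7 was at 49.8 and 41.9 TPM in the EV libraries and at 125 and 118 TPM in the KO libraries (1.39 ± 0.10, adjusted p = 0.00494). Krt19, its type I partner, was at 0.322 and 0.0916 TPM in the EV libraries and at 3.67 and 3.25 TPM in the KO libraries, with a log2 fold change of 1.89. Neither gene overlapped, and Krt7 exceeded Krt19 by 34.0 and 36.2 times in the KO libraries.

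Krt6a was the most abundant keratin of Myc-CaP in all 4 libraries. It was at 300.5 and 288 TPM with the empty vector and at 542 and 503 TPM in the KO libraries, with no overlap (0.82 ± 0.06, adjusted p = 0.00583). Krt16, its type I partner, was at 0.582 and 0.827 TPM in the EV libraries and at 3.32 and 3.19 TPM in the KO libraries (1.32 ± 0.17, adjusted p = 0.0207). Krt80, a type II keratin found in many epithelia and second to Krt6a with the empty vector, was at 119.8 and 114 TPM in the EV libraries and at 126 and 122 TPM in the KO libraries. Its groups did not overlap but differed by 0.08 ± 0.06 and it was not called (adjusted p = 0.480). Krt15 was at 0.199 and 0.0754 TPM in the EV libraries and at 2.46 and 1.84 TPM in the KO libraries, with a log2 fold change of 1.46. Krt36, a hair keratin, was at 1.57 and 1.73 TPM in the EV libraries and at 4.16 and 4.41 TPM in the KO libraries (0.998 ± 0.14, adjusted p = 0.0253). Both KO libraries were the higher ones for each of these called genes. Krt10 was at 0.931 and 0.582 TPM in the EV libraries and at 1.24 and 1.34 TPM in the KO libraries, was not called, and its epidermal partner Krt1 was listed at 0 throughout.

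For 3 keratins a single library decided the value. Krt14 was at 0.265 and 0.452 TPM in the EV libraries and at 0.774 and 6.04 TPM in KO libraries 1 and 2. Krt5 was listed at 0 in 3 libraries and was at 1.98 TPM in KO library 2. Krt17 was at 0.147 and 0.0835 TPM in the EV libraries and at 0.0779 and 3.56 TPM in the KO libraries. All 3 genes were high in KO library 2 alone, and Krt14 (1.38 ± 0.66, adjusted p = 0.312) and Krt17 (0.99 ± 0.69, adjusted p = 0.480) were not called. Stromal marker sums were higher in library 2 of each group. The 9 fibroblast and smooth muscle genes summed to 8.32 and 47.4 TPM in EV libraries 1 and 2 and to 7.75 and 22.6 TPM in KO libraries 1 and 2. EV library 2 thus had the largest stromal sum, while the 3 keratins were low there. Of the stromal genes, 6 were tested by limma without a call (1 of them, Pdgfra, at p under 0.05 before adjustment). The part of stromal cells in the levels of Krt5, Krt14 and Krt17 was not tested.

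The summed keratin level was 484 and 457 TPM in the EV libraries and 903 and 865 TPM in the KO libraries, a ratio of 1.88 with no overlap. Almost all of it was type II, at between 96.6% and 98.8% of the sum in each library, against between 26.7% and 39.1% in the epithelium. Type I keratins summed to 5.93 and 5.31 TPM in the EV libraries and to 20.7 and 29.1 TPM in the KO libraries. Vim, the mesenchymal filament vimentin, was at 729 and 761 TPM in the EV libraries and at 608 and 607 TPM in the KO libraries and was called lower (-0.29, adjusted p = 0.0454). In total 3 of 5 other intermediate filament genes tested were lower (Vim, Lmna and Lmnb2), against 1.89% of all genes, with a median of -0.29. The calls of Vim and Lmnb2 (adjusted p = 0.0492) lay close to the threshold, and their dependence on single libraries is not given. In the epithelium Vim was called higher, also close to the threshold (0.31, limma adjusted p = 0.0471), and Lmna and Lmnb2 were not called. Of 11 attachment genes tested 1 was called, Pkp2, which was lower (-0.60, median -0.07), and of 5 transcription factors 1 was higher, against 4.54% of all genes, namely Zfp750 (1.39; 0.598 and 0.640 against 3.06 and 3.45 TPM; median 0.21). Pbsn, a defining marker of prostate luminal cells, was listed at 0 in all 4 libraries, while Cd24a was at 197 and 216 TPM in the EV libraries and 127 and 142 TPM in the KO libraries and was called lower (-0.62). The squamous envelope genes Ivl, Lor and Sprr1b were at 0 throughout. Markers of leukocytes, urothelium, seminal vesicle and endothelium were low, with sums of at most 5.70 TPM.

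With 2 libraries a group, the calls leaned on every library. Without any 1 library, Krt15, Krt16, Krt19, Krt36 and Krt6a were not called in any of the 4 fits, with adjusted p-values between 0.0676 and 0.165. Krt7 was not called without KO library 1 (0.0778) or KO library 2 (0.0676). Krt4 and Krt8 stayed called in all 4 fits, with adjusted p-values up to 0.0484, and every one of these 8 genes kept its direction.

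Of the 13 keratins tested in both tables, 4 were called higher in both: Krt4, Krt6a, Krt7 and Krt16. They are 30.8% of the keratins called higher in the epithelium and 50% of those in Myc-CaP. Over all genes tested, 27.5% were called higher in the epithelium and 4.54% in Myc-CaP. The share of all genes called higher in both was not counted, so the overlap has no background beside it. The Myc-CaP calls of Krt6a, Krt7 and Krt16 leaned on single libraries, as given above. The log2 fold changes in the epithelium and in Myc-CaP, each on its own scale, were 1.05 and 3.34 for Krt4, 1.51 and 0.82 for Krt6a, 0.74 and 1.39 for Krt7, and 2.35 and 1.32 for Krt16. Krt19 had a log2 fold change of -0.59 in the epithelium and of 1.89 in Myc-CaP, where it passed the filter only through the KO libraries. Krt13, the keratin with the largest change in the epithelium, was below the filter in Myc-CaP, and Krt8, the largest in Myc-CaP, was called in the epithelium only under the alternatives given above. The tables were normalized separately and have different units, so no difference between them was tested.

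**Figure D4:**
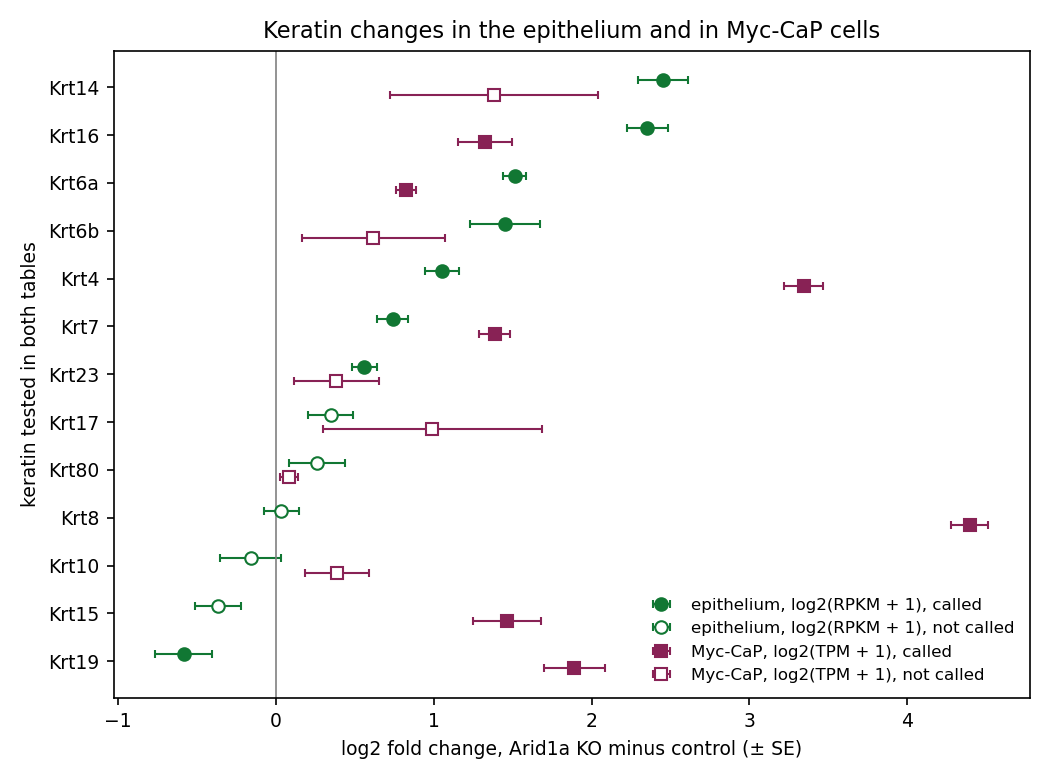
Log2 fold change (Arid1a KO minus control, horizontal axis, bars are ± SE) of the 13 keratins tested in both tables, in the epithelium (circles, log2(RPKM + 1)) and in Myc-CaP (squares, log2(TPM + 1)). Filled symbols are called at an adjusted p-value under 0.05. Krt4, Krt6a, Krt7 and Krt16 are filled and positive in both, and Krt19 is filled on opposite sides of 0.

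Neighbours in a cluster differed in their calls. On chromosome 11 (27 keratins, 10 tested in the epithelium), 6 were higher and 1 lower. On chromosome 15 (27 keratins, 13 tested), 7 were higher and 2 lower. Over all genes tested in the epithelium, 27.5% were called higher and 29.6% lower. The cluster counts include Krt33b on chromosome 11 and Krt83 on chromosome 15, which passed the filter on low values through 1 group only. Krt13 and Krt15 are consecutive in the list of keratins along chromosome 11, at 100117327 to 100121566 and 100131758 to 100135928 on GRCm38, yet Krt13 was called 35.8-fold higher and Krt15 had a ratio of 0.767 and was not called. Krt19 follows Krt15 and was called lower. At the end of the chromosome 15 cluster, Krt8 and Krt18 lie at 101996698 to 102004482 and 102028180 to 102032027. In Myc-CaP both clusters held 4 keratins called higher, of 9 tested on chromosome 11 and 7 on chromosome 15, against 4.54% of all genes. Those on chromosome 11 include Krt15 and Krt19, which passed the filter only through the KO libraries.

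**Figure D5:**
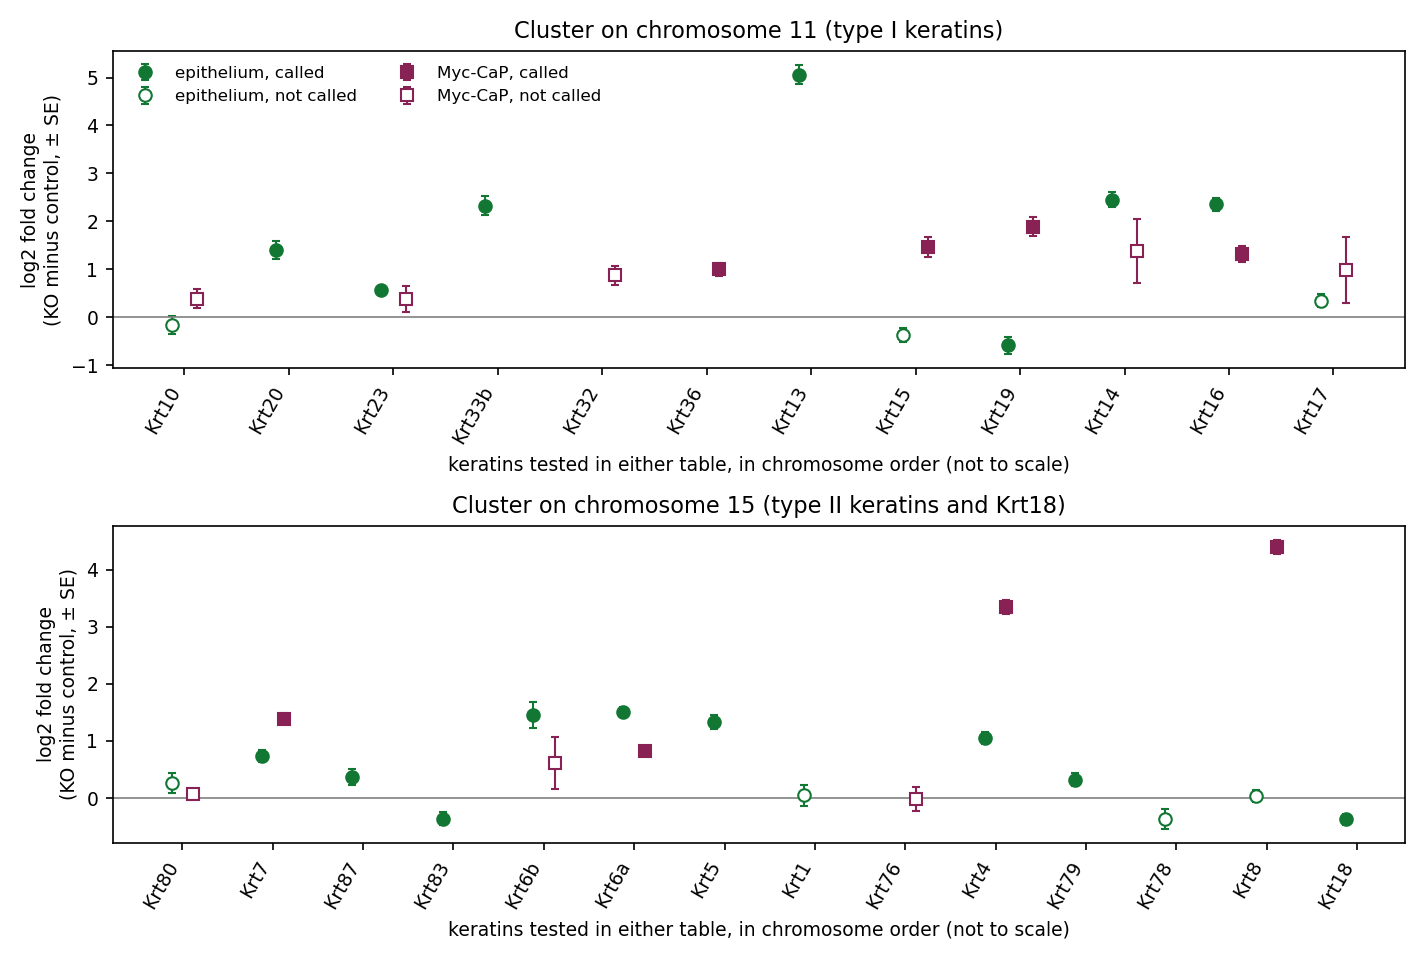
Log2 fold change (KO minus control, bars are ± SE) of keratins tested in either table, in their order along the clusters of chromosomes 11 and 15 (not to scale), in the epithelium (circles) and in Myc-CaP (squares), with filled symbols called. Krt13 stands at 5.06 beside Krt15 and Krt19, which lie below 0 in the epithelium and above 0 in Myc-CaP.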

How the data were processed

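RNA sequencing was measured in 10 mouse libraries. Per the study's methods, the authors used TopHat2 for the alignment of read pairs to GRCm38/mm10 and HTSeq-count for counting, while the submitters' processing notes name HISAT2, HTSeq and DESeq2, with versions not given in the sources used here. The authors deposited RPKM values for the epithelium (scaled by gene length and library depth) and TPM values for Myc-CaP (scaled by length and to a common sum), with 1 file per library and no pooling. No counts were used, so the count-based test of the study was not run. The methods describe strand-aware alignment and counting with the best match kept for each read.

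A gene whose mean over a table's libraries reached 0.5 was tested with limma 3.58.1 in R 4.3.3 on log2(value + 1), knockout against control within each table, with a trend in the prior variance, and p-values were adjusted by Benjamini and Hochberg over all genes tested. A fold change on this scale understates the change of low genes. Tests were two-sided. The keratins, classes and lists were chosen with earlier results of these data known. Values in every library were printed for each keratin called, for those with a group mean of at least 50 and for 6 type II and type I pairs, and list genes were named where called and past 1 on the log2 scale. Dsp, Ehf, Pkp2, Vim, Lmna, Lmnb2 and some marker genes were named after their values were seen. Lengths and coordinates are from GENCODE M21, and promoters from RefSeq. Same-lettered epithelium libraries showed no pairing. The script was tested on simulated data. Alternatives were another pseudocount, filter, variance prior, scaling, quantile normalization, a length trend, a replicate block and leaving out each library. A deletion shared by both epithelium groups and 1 marker gene are not reported here by name.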

Additional observations from a re-analysis of the deposited data

Results flagged for a closer look

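Krt15 and Krt19, type I keratins that are neighbours on chromosome 11, had log2 fold changes of opposite sign in the epithelium and in Myc-CaP. For Krt15 the log2 fold change was -0.37 in the epithelium (not called, limma adjusted p = 0.0638) and 1.46 in Myc-CaP, and for Krt19 it was -0.59 and 1.89. In the values as deposited, every KO library of both genes lay below every control in the epithelium and above every empty vector library in Myc-CaP. The fall of Krt15 in the epithelium was smaller, and still not called, with libraries rescaled to the same sum (-0.19) and after quantile normalization (-0.13). The call of Krt19 in the epithelium was lost after quantile normalization, after removal of the length trend, without the low-value filter and without KO library A or B. In Myc-CaP both genes passed the filter only through the KO libraries. The difference between the tables was not tested, since they were normalized separately. The levels also lie far apart, at 812 RPKM or more in the epithelium and at 3.67 TPM or less in Myc-CaP. With 2 or 3 libraries a group, single libraries were not screened as outliers.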

How the results depend on the processing

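Against 3 keratins called lower in the epithelium, limma called 0 lower after removal of a length trend and 0 after quantile normalization (1 at an unadjusted p under 0.05 in each). It called 1 without the low-value filter, which was none of the 3, and 1 with libraries rescaled to 1 sum, Krt19. When 1 library was left out it called 1 to 3, of which at most 2 were among the 3, and Krt15 was the other without control C. The 13 called higher became 8 with a minimum mean of 5, where fewer genes were tested. The share of all genes called in the epithelium, 57.1%, was 15.2% with no filter. In Myc-CaP, with no filter, 0 keratins and 0% of all genes were called by limma (11 keratins and 7.41% of genes at an unadjusted p under 0.05). The 8 keratins called higher became 4 with a minimum mean of 5 and 2 to 3 when 1 library was left out, where the lone library of a group is assumed to vary like the other group. The share of all genes called, 6.43%, was 3.23% without a trend in the prior variance and 0.336% to 0.545% when 1 library was left out. Where no cause is given above, the cause was not tested.

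Directions reversed for 3 uncalled keratins of the epithelium: Krt10 was at 0.043 after removal of the length trend and between -0.35 and 0.062 when 1 library was left out, Krt1 between -0.16 and 0.20 and Krt8 between -0.030 and 0.14. Over all alternatives, 334 values of single keratins kept their direction and their side of the threshold, 59 lost the call, 8 gained one and 6 reversed.

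With a replicate block, 19.8% of all genes were called in Myc-CaP, and the calls of the keratins named there did not change. In the epithelium the block ended the calls of Krt79, Krt83 and Krt87 and gave one to Krt17. No label pairs the same-numbered libraries. Their deviations correlated at 0.04, 0.0094 and -0.06 in the epithelium and at 0.19 in Myc-CaP. With 2 libraries a group, the values for like and unlike numbers must be equal and opposite (0.19 and -0.19). They therefore cannot show whether the Myc-CaP libraries were paired.

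Depth limits the low keratins: in Myc-CaP Krt18 rests on about 5 and 7 reads in the KO libraries, and Krt15 and Krt19 on at most about 5 reads in the EV libraries.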
